A study of Homo sapiens with 2 samples.

Results

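The enzyme genes of serine synthesis and folate-bound carbon transfer described here were taken by symbol from the deposited table: PHGDH, PSAT1, PSPH, SHMT1, SHMT2, MTHFD1, MTHFD2, MTHFD1L and ALDH1L2. All 9 were found among 58735 gene rows, each under a single identifier. RNA-seq was done on DHA-treated cells (1 library) and untreated cells (1 library, labelled NC) of a SUIT-2 derivative with high metastatic potential. SUIT-2 is a human pancreatic adenocarcinoma line, and DHA, dihydroartemisinin, is the active metabolite of the artemisinin antimalarials. Both conditions use that 1 line, and no source used here states the dose, the exposure time or a vehicle. With 1 library per condition no difference has a replicate check, no p-value was computed, and fewer cells of a kind cannot be told apart from less RNA per cell.

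Serine is made in the cytosol from a glycolytic intermediate in 3 steps, catalysed by PHGDH, PSAT1 and PSPH. Serine hydroxymethyltransferases then pass a carbon unit from serine to tetrahydrofolate and release glycine. That transfer and the oxidation that follows run in parallel in mitochondria (SHMT2, MTHFD2, MTHFD1L, ALDH1L2) and in the cytosol (SHMT1, MTHFD1). In proliferating cells the mitochondrial arm usually runs towards formate, which leaves the organelle and is reattached to folate by MTHFD1 for purine and thymidylate synthesis. Transcription of PHGDH, PSAT1, SHMT2 and MTHFD2 is known to be raised by ATF4, the transcription factor of the integrated stress response.

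Both cytosolic folate enzyme genes were lower in the DHA library, SHMT1 by 2.14-fold (95% counting interval 1.92 to 2.38) and MTHFD1 by 2.04-fold (1.92 to 2.16). The 4 mitochondrial genes spread over a wide range, with log2 ratios from -0.54 for MTHFD1L to 0.97 for MTHFD2, and the 3 serine synthesis genes lay between -0.46 and 0.27. The mitochondrial to cytosolic ratio of summed reads per kilobase was 7.86 in the DHA library and 3.43 in the untreated library, a 2.29-fold difference (2.16 to 2.44).

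Promoter sequences are shown for the 4 genes on which the contrast between the arms turns, the mitochondrial genes with the highest and lowest ratio and both cytosolic genes. RefSeq promoter windows (GRCh38.p14) matched 6 of the 9 genes, and PSPH, SHMT2 and ALDH1L2 are named only. Each run gives the 250 bases before the annotated start, read 5′ to 3′ on the gene's strand. Capitals mark matches to TGATGNAAN, the element bound by C/EBP and ATF factors, and to CACGTG, the E-box. Both were searched on both strands, the E-box after the ratios were known, and the 2 motifs do not overlap in these windows.
MTHFD2 (chr2:74198365-74198614, plus strand): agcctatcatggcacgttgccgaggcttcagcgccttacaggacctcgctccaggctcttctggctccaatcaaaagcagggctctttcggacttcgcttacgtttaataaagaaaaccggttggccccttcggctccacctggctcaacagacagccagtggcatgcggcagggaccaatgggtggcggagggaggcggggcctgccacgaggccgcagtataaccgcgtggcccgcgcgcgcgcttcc
MTHFD1L (chr6:150866236-150866485, plus strand): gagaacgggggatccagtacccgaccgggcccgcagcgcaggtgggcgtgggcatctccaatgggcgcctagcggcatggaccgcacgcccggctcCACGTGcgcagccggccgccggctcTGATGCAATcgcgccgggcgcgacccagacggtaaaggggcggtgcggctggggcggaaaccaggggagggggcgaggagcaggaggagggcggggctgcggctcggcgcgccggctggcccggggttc
MTHFD1 (chr14:64388103-64388352, plus strand): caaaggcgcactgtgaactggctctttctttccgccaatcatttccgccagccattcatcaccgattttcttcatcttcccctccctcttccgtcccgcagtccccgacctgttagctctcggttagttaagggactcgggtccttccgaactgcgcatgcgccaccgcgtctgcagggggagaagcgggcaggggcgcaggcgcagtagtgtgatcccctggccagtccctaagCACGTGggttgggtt
SHMT1 (chr17:18363551-18363800, minus strand): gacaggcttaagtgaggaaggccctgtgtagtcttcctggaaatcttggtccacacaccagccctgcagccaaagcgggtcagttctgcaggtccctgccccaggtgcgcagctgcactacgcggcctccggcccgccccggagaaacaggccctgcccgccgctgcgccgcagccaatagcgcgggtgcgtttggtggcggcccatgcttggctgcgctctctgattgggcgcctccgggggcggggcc

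The windows of MTHFD2 and SHMT1, which had the highest and the lowest ratio of the 9 genes, held no match to either motif. MTHFD1L held TGATGCAAT at bases -129 to -121 and CACGTG at -154 to -149 from its start, and MTHFD1 held CACGTG at -15 to -10. Neither PHGDH nor PSAT1 had a match in its window. Of 35116 promoter windows of the same length, 3.13% held TGATGNAAN and 6.34% held CACGTG. MTHFD1L has 4 annotated starts in the table, and 2 overlapping windows, of which 1 is shown, held both motifs at the same genomic bases. The windows of its other starts held neither. The pentamer CCAAT, searched in either orientation, was like the E-box not set in advance. At least 1 window of each of the 6 genes held it. It was found once in PHGDH and MTHFD1, in 2 places in MTHFD2 and SHMT1 and in 3 places in PSAT1. In MTHFD1L it was found once in 3 of the 4 windows, which overlap there, at the same genomic bases. Of all windows 32.0% held it, a share per window that is not matched to a count per gene. Such matches describe the letters of a window and do not show that a factor binds there.

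The libraries held 14521101 counted reads (DHA) and 15452609 (untreated). All 9 genes were well covered, with 463 to 5145 reads in either library. Calls required 50 or more reads in either library, a 2-fold or larger ratio and a 95% counting interval without 1 in it. Of 12064 genes with enough reads, 17.0% were called, 6.72% higher and 10.3% lower, around a median log2 ratio of 0.04. Of the 9 enzyme genes all had enough reads, 0 were called higher and 2 lower, with a median log2 ratio of -0.21. The pancreatic epithelial markers KRT7, KRT8, KRT18, KRT19, EPCAM, CDH1 and MUC1 summed to 1312 CPM (counts adjusted for library size) in the DHA and 3326 in the untreated library, with 6 of 7 called lower. Their part in the enzyme results was not tested. Of 6 retinal markers, checked because the extraction text mentions retina, 4 had 0 reads in the DHA and 5 in the untreated library, and the list summed to 10 and 20 reads. Immune markers (4 genes) summed to 12 and 22 reads, fibroblast markers (4 genes) to 12 and 104, and endothelial markers (3 genes) to 57 and 281. Most fibroblast marker reads were from COL1A1 (11 and 83) and most endothelial ones from PECAM1 (54 and 280), both called lower. COL1A2, DCN and CDH5 had 0 reads in both libraries, so the sums do not measure these cell types.

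Serine synthesis showed no gene past the 2-fold rule, and its 3 genes did not move together. PHGDH encodes phosphoglycerate dehydrogenase, the entry enzyme (ENSG00000092621, chromosome 1, 119648411 to 119744226, plus strand). It had 2090 reads in the DHA and 3038 in the untreated library, or 15.6 and 21.4 RPKM (reads scaled to gene length and library size). Its ratio was 1.38-fold lower (1.30 to 1.46), below the 2-fold rule but outside counting error. PSAT1, the phosphoserine aminotransferase gene (ENSG00000135069, chromosome 9, 78297143 to 78330093, plus strand), had 2908 reads in the DHA and 2549 in the untreated library, or 91.2 and 75.7 RPKM. It stood on the other side, 1.20-fold higher (1.14 to 1.27). PSPH, which encodes the phosphatase of the last step (ENSG00000146733, chromosome 7, 56011051 to 56051604, minus strand), had counts of 483 in the DHA and 592 in the untreated library, or 12.0 and 13.9 RPKM. Its log2 ratio was -0.21 (-0.39 to -0.04), the smallest difference of the 3.

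Within a library, a ratio of 2 genes does not depend on how the libraries are scaled. The PSAT1 to PHGDH ratio of reads per kilobase was 5.86 in the DHA and 3.53 in the untreated library, a 1.66-fold difference (1.53 to 1.79). That ratio alone shows only a relative difference of the second and first steps. Their opposite directions come from the scaled log2 ratios, 0.27 for PSAT1 and -0.46 for PHGDH. The PSPH to PHGDH ratio differed less, by 1.19-fold (1.04 to 1.36). The ratios within a library depend on the gene lengths used, though the differences between libraries do not. With the length of each principal transcript, PSAT1 to PHGDH was 1.64 in the DHA and 0.991 in the untreated library.

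**Figure D1:**
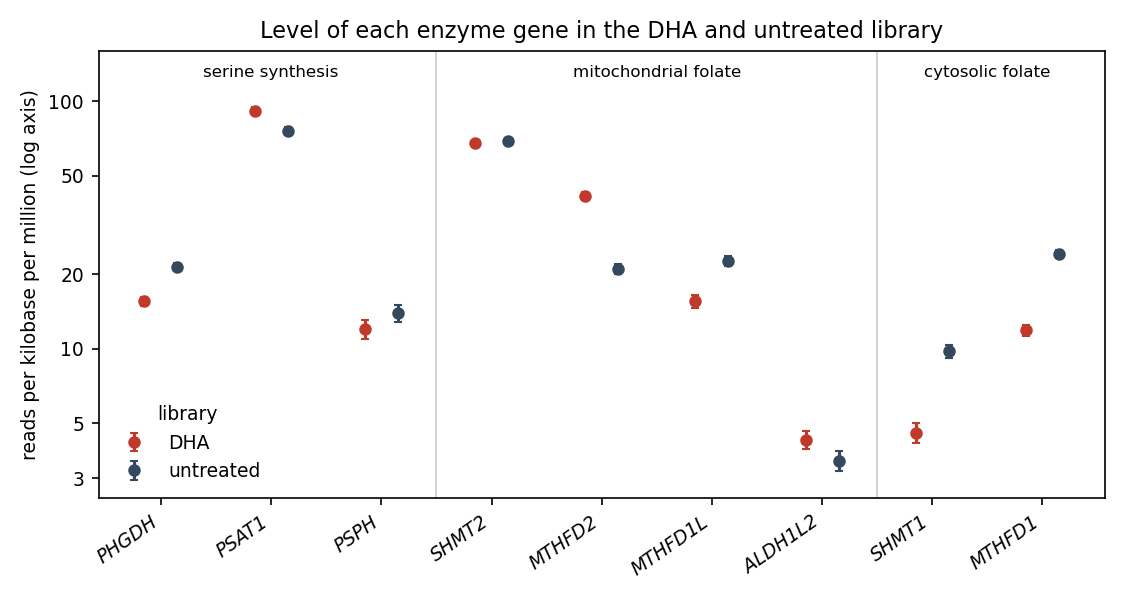
Level of each enzyme gene in RPKM (log axis) in the DHA library (red) and the untreated library (blue), 1 library each, with bars for the 95% exact Poisson counting interval. Both cytosolic folate genes lie lower in the DHA library (SHMT1 at 4.57 against 9.77), and MTHFD2 lies higher (41.4 against 21.0).

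Among the mitochondrial folate enzymes, MTHFD2 stood apart. MTHFD2 encodes the dehydrogenase and cyclohydrolase that oxidises the folate-bound carbon unit in the matrix, an enzyme abundant in tumours and low in most adult tissues (ENSG00000065911, chromosome 2, 74198562 to 74217565, plus strand). It had 2937 reads in the DHA and 1578 in the untreated library, or 41.4 and 21.0 RPKM. The ratio was 1.97-fold (1.85 to 2.09), just under the 2-fold rule, and higher than that of 92.9% of genes with enough reads. After correction for gene length and GC content its log2 ratio was 1.04 and it was called higher. At a threshold of 1.5-fold, which 38.2% of all genes passed, 1 of the 9 enzyme genes was called higher, MTHFD2 (18.9% of all genes), and 2 lower, SHMT1 and MTHFD1 (19.2%). Of its exon length, 33.2% overlaps SLC4A5 on the opposite strand, which had 10 reads in the DHA and 5 in the untreated library.

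SHMT2, the mitochondrial serine hydroxymethyltransferase gene (ENSG00000182199, chromosome 12, 57229327 to 57234935, plus strand), had 4801 reads in the DHA and 5145 in the untreated library, or 68.1 and 69.1 RPKM. It was the only one of the 9 whose counting interval included no difference, with a log2 ratio of -0.02 (-0.08 to 0.04). Upper-quartile scaling gave -0.09 and the length and GC correction 0.06, so its sign is not fixed by these data. MTHFD1L, which encodes the mitochondrial ligase that frees formate from folate (ENSG00000120254, chromosome 6, 150865549 to 151101887, plus strand), had 1139 reads in the DHA and 1749 in the untreated library, or 15.6 and 22.6 RPKM. It was 1.45-fold lower (1.35 to 1.57), the lowest ratio of the mitochondrial arm. ALDH1L2 encodes the mitochondrial dehydrogenase that burns formyl-folate to carbon dioxide while making NADPH (ENSG00000136010, chromosome 12, 105019784 to 105084577, minus strand). It had 532 reads in the DHA and 463 in the untreated library, or 4.29 and 3.54 RPKM, the lowest level of the 9 in both. Its ratio was 1.21-fold higher (1.07 to 1.38).

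The mitochondrial steps therefore differed from each other as well as from the cytosol. The MTHFD1L to MTHFD2 ratio of reads per kilobase was 0.376 in the DHA and 1.08 in the untreated library, a log2 difference of -1.52 (-1.66 to -1.37). The SHMT2 to MTHFD2 ratio was 1.65 in the DHA and 3.28 in the untreated library. MTHFD2L, which encodes a close relative of MTHFD2 with the same activities, had 203 and 211 reads and a log2 ratio of 0.02 (-0.26 to 0.31). The MTHFD2 to MTHFD2L ratio of reads per kilobase was 29.2 in the DHA and 15.1 in the untreated library. With principal transcript lengths it was 7.47 and 3.86.

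**Figure D2:**
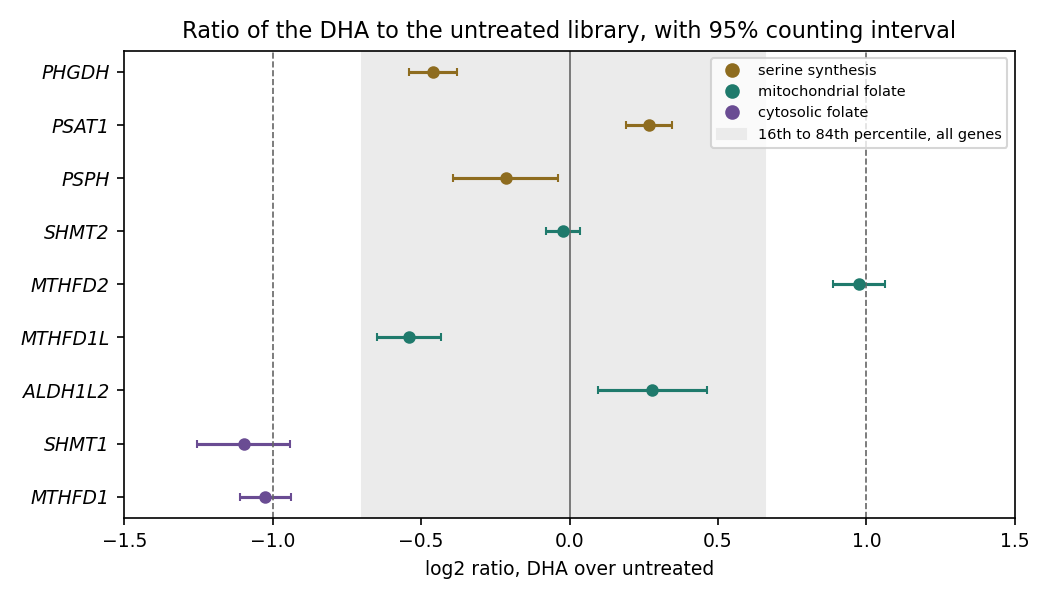
Log2 ratio, DHA over untreated, for each enzyme gene, with the 95% counting interval, coloured by enzyme group; dashed lines mark 2-fold and the grey band spans the 16th to 84th percentile of all 12064 genes. SHMT1 (-1.10) and MTHFD1 (-1.03) lie below the lower dashed line, and MTHFD2 (0.97) lies just inside the upper one.

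The cytosolic arm was lower in the DHA library in both of its genes and to nearly the same degree. SHMT1, the cytosolic serine hydroxymethyltransferase gene (ENSG00000176974, chromosome 17, 18327860 to 18363563, minus strand), had counts of 485 in the DHA and 1095 in the untreated library, or 4.57 and 9.77 RPKM. Its log2 ratio of -1.10 (-1.25 to -0.94) was higher than that of 9.01% of genes with enough reads. MTHFD1 encodes the trifunctional cytosolic enzyme that takes formate back onto folate and interconverts the bound carbon unit (ENSG00000100714, chromosome 14, 64388031 to 64463457, plus strand). It had 1624 reads in the DHA and 3491 in the untreated library, or 11.9 and 24.2 RPKM, with a log2 ratio of -1.03 (-1.11 to -0.94). Both intervals reach across the 2-fold line. The MTHFD1 to SHMT1 ratio of reads per kilobase was 2.60 in the DHA and 2.48 in the untreated library, and the interval of its difference, 0.93 to 1.19-fold, included 1.

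Set against each other, all 4 mitochondrial genes stood higher in the DHA library relative to a cytosolic folate gene. SHMT2 was set against its counterpart SHMT1 and the other 3 against MTHFD1. Most genes would stand higher in the same way, whatever their compartment. Only 9.01% of genes with enough reads had a lower ratio than SHMT1, and 9.91% a lower ratio than MTHFD1. The SHMT2 to SHMT1 ratio of reads per kilobase was 14.9 (13.6 to 16.4) in the DHA and 7.07 (6.62 to 7.55) in the untreated library. That 2.11-fold difference (1.88 to 2.37) came with SHMT2 near equal and SHMT1 lower. The MTHFD2 to MTHFD1 ratio was 3.48 in the DHA and 0.870 in the untreated library, a 4.001-fold difference (3.67 to 4.36). For MTHFD1L to MTHFD1 the ratios were 1.31 and 0.936, a 1.40-fold difference (1.27 to 1.54), and for ALDH1L2 to MTHFD1 they were 0.361 and 0.146, a 2.47-fold difference (2.15 to 2.84). Of the folate reads per kilobase of the 6 genes, mitochondrial enzymes took 88.7% in the DHA and 77.4% in the untreated library. Without MTHFD2 the difference in the summed ratio was 1.91-fold (1.79 to 2.03), and without SHMT2 it was 2.68-fold. These ratios of levels depend on the lengths used, and with the length of each principal transcript the summed ratio was 4.11 in the DHA and 1.88 in the untreated library, a 2.19-fold difference. In all, 13 pairs were compared, and all intervals cover counting error only.

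**Figure D3:**
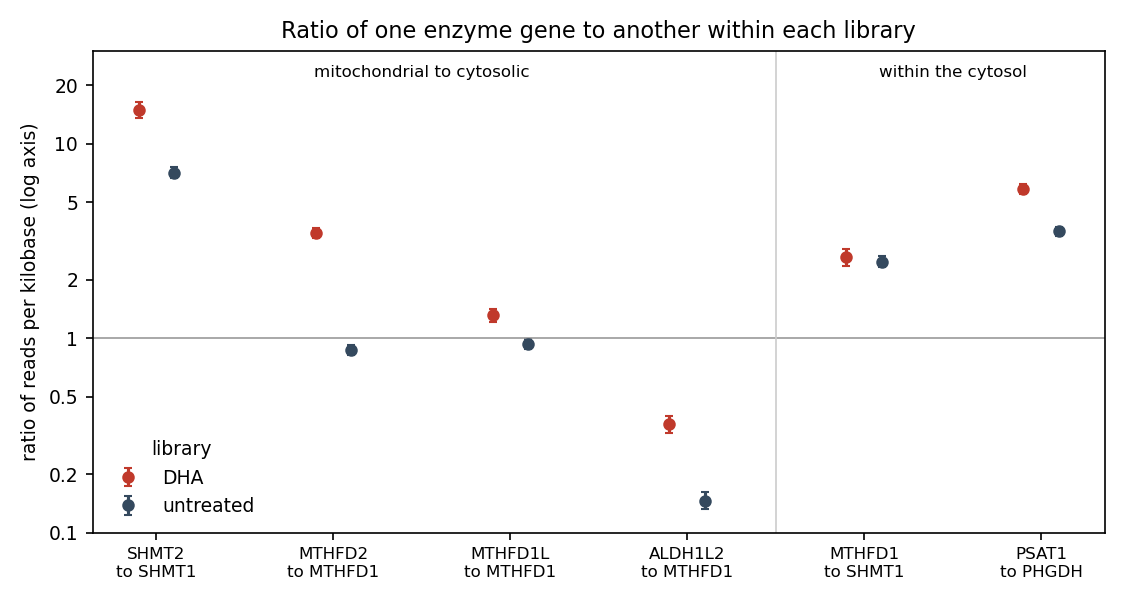
Ratio of reads per kilobase between pairs of enzyme genes (log axis) within the DHA library (red) and the untreated library (blue), with 95% exact binomial counting intervals. The 4 mitochondrial to cytosolic ratios lie higher in the DHA library, and the intervals of the MTHFD1 to SHMT1 ratio (2.60 and 2.48) overlap.

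By level per kilobase, PSAT1 and SHMT2 were the highest of the 9 genes in both libraries and SHMT1 and ALDH1L2 the lowest. In the DHA library the order was PSAT1, SHMT2, MTHFD2, MTHFD1L, PHGDH, PSPH, MTHFD1, SHMT1 and ALDH1L2. The neighbours MTHFD1L and PHGDH, PSPH and MTHFD1, and SHMT1 and ALDH1L2 did not differ there beyond counting error. In the untreated library the order was PSAT1, SHMT2, MTHFD1, MTHFD1L, PHGDH, MTHFD2, PSPH, SHMT1 and ALDH1L2. There MTHFD1L and PHGDH, and PHGDH and MTHFD2, did not differ beyond counting error. The order also depends on length, because the deposited lengths join all annotated exons (9217 bases for PHGDH, against 2585 for its principal transcript). Per kilobase of the principal transcript SHMT2 led with 130 in the DHA and 132 in the untreated library, and PHGDH had 55.5 and 76.3.

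Other folate genes gave calls in both directions. Lists of linked genes were set by function, 11 lists with 105 distinct genes, of which 88 had enough reads. Of these, 12 were called higher (13.6%, against 6.72% of all genes) and 8 lower (9.09%, against 10.3%). A single list, the 9 regulators tied to serine synthesis genes described below, held 6 of the 12 higher calls. The higher share therefore does not describe the metabolic lists. Among 5 other cytosolic folate enzyme genes with enough reads, 2 were lower and 1 higher, with a median log2 ratio of -0.88. With DESeq2 size factors or upper-quartile scaling 0 of this list were higher. Of the lower genes, TYMS, the thymidylate synthase gene, had 336 reads in the DHA and 863 in the untreated library and was 2.43-fold lower (2.14 to 2.77), with 46.6% of its exon length overlapped by ENOSF1 on the opposite strand. ALDH1L1, the cytosolic counterpart of ALDH1L2, had 0 reads in both libraries, where a count of 0 allows up to 0.206 CPM in the DHA and 0.195 in the untreated library.

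Among 6 other mitochondrial folate genes with enough reads, 1 was lower (against 10.3% of all genes) and 0 were higher (against 6.72%). The median log2 ratio was -0.21. The lower one was GCSH, the carrier protein gene of the glycine cleavage system, at 107 reads in the DHA and 298 in the untreated library (2.63-fold, 2.11 to 3.32). GLDC, the decarboxylase gene of that system, had 46 and 58 reads. Of 12 mitochondrial tricarboxylic acid cycle genes 0 were called, where 17.0% of all genes were, and the median log2 ratio was -0.21. Their products work in the same compartment, but their RNA does not measure that compartment. Folate transport and storage genes had log2 ratios below 0 in 4 of 4 genes with enough reads, where the median of all genes was 0.04. Their calls numbered 0, against 17.0% of all genes. The nearest to a call was SLC19A1, the reduced folate carrier gene, at 459 reads in the DHA and 959 in the untreated library (log2 ratio -0.98, and called lower with DESeq2 size factors and upper-quartile scaling). The mitochondrial folate carrier gene SLC25A32 had 9 and 3 reads, with 80.8% of its exon length shared with other annotated genes, so its level is uncertain.

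Purine synthesis takes up folate-bound carbon at the steps of GART and ATIC. Of 10 purine synthesis genes, among them GART and ATIC from the cytosolic folate list, 9 had log2 ratios below 0. Their median was -0.53, against 0.04 for all genes with enough reads. Calls numbered 0, where 17.0% of all genes were called. The largest difference was that of ATIC, which carries out the last steps of the pathway with a formyl-folate donor, at 1383 reads in the DHA and 2695 in the untreated library (log2 ratio -0.88, -0.98 to -0.79). The other formyl-folate user of the pathway, GART, had -0.26. In the methionine cycle and transsulfuration list 0 of 9 genes were called, against 17.0% of all genes, and the median was -0.25. The transsulfuration gene CTH lay highest, at 364 reads in the DHA and 207 in the untreated library (log2 ratio 0.89, 0.64 to 1.15).

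**Figure D4:**
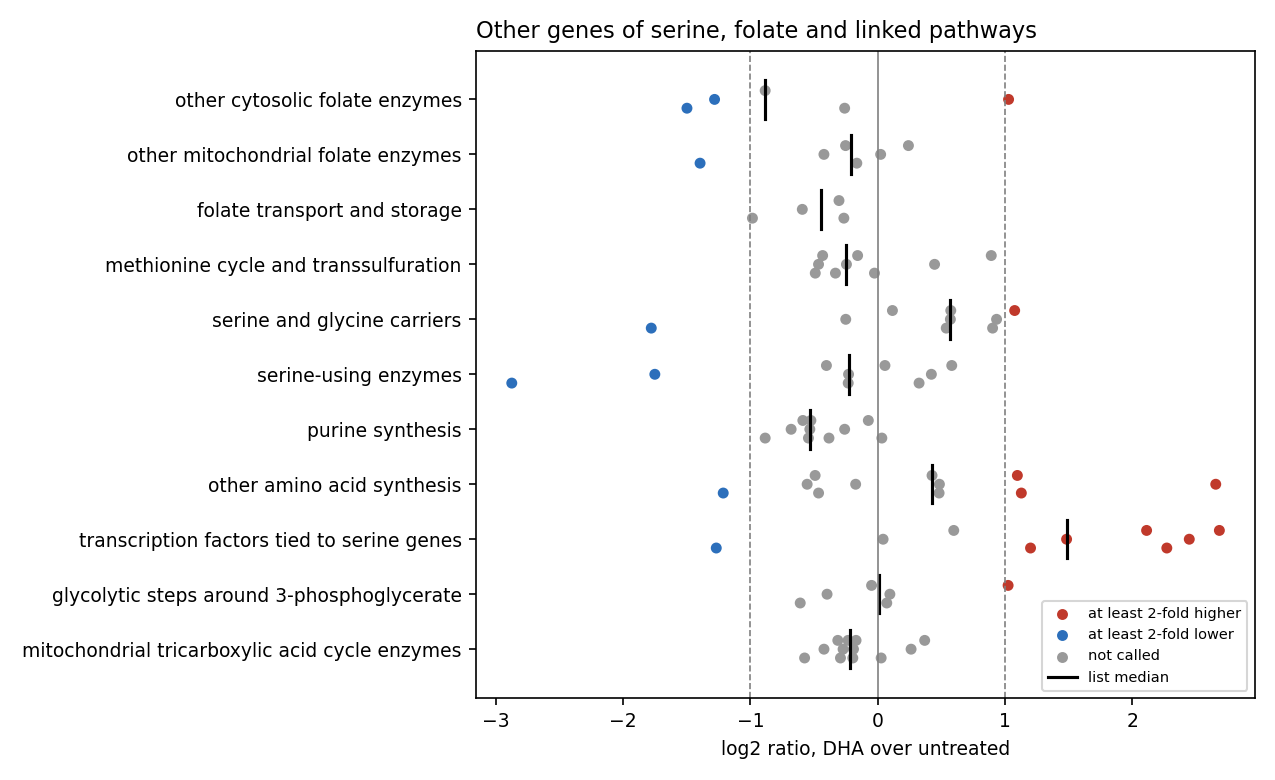
Log2 ratio, DHA over untreated, for linked genes with at least 50 reads, 1 row per list, with each point a gene and a black bar at the list median; dashed lines mark 2-fold. Transcription factors tied to serine genes, a row that also holds the pseudokinase TRIB3, lie furthest to the right (median 1.48), and purine synthesis (-0.53) and other cytosolic folate enzymes (-0.88) lie to the left.

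Carriers of serine and glycine had a median log2 ratio of 0.57, with 1 of 9 higher (against 6.72% of all genes) and 1 lower (against 10.3%). The higher one was SLC1A4, a plasma membrane carrier of serine and alanine, at 1038 reads in the DHA and 520 in the untreated library (2.11-fold, 1.90 to 2.35). SFXN2, a mitochondrial sideroflexin gene, had 51 reads in the DHA and 186 in the untreated library and was 3.43-fold lower (2.52 to 4.80). SFXN1, which encodes the main mitochondrial serine carrier, had a log2 ratio of -0.25 (-0.33 to -0.18). Among 9 genes of the serine-using enzyme list 2 were lower and 0 higher, with a median of -0.23, where 10.3% of all genes were lower. With at least 500 reads required, 0 of the list were lower. The 2 lower genes were GATM (9 against 73 reads, 7.33-fold, 3.83 to 17.5) and SPTLC3 (14 against 51 reads, 3.36-fold, 1.88 to 6.75). SPTLC3 is a serine palmitoyltransferase subunit gene. GATM makes guanidinoacetate from glycine, so the name of the list does not describe it.

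PHGDH draws its substrate from glycolysis. Of 6 glycolytic genes around that step 1 was called, where 17.0% of all genes were. It was BPGM, which encodes bisphosphoglycerate mutase, 2.03-fold higher (1.72 to 2.42) at 399 against 207 reads. With DESeq2 size factors and upper-quartile scaling it was under 2-fold. PGK1 and PGAM1, which encode the enzymes that make and use the substrate, had log2 ratios of 0.07 and -0.40, and the pyruvate kinase gene PKM had -0.61 (-0.63 to -0.59). Among 11 other amino acid synthesis genes, 3 were higher (against 6.72% of all genes) and 1 lower (against 10.3%), with a median of 0.43. The asparagine synthetase gene ASNS had 74 reads in the DHA and 12 in the untreated library, 6.29-fold higher (3.51 to 13.2), with 44.6% of its exon length shared with another gene on the same strand. The cytosolic aspartate aminotransferase gene GOT1 was 2.19-fold (2.03 to 2.35) higher, and the proline synthesis gene PYCR3 was 2.32-fold lower (2.05 to 2.63).

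Among regulators tied to serine synthesis genes the median ratio was above that of each of the other 10 lists. Of 9 with enough reads, 6 were higher and 1 lower, with a median log2 ratio of 1.48. ATF4 had 5763 reads in the DHA and 2177 in the untreated library, 2.80-fold higher (2.66 to 2.94). CEBPB, which encodes a partner of ATF4, was 4.82-fold higher (4.51 to 5.17), and the pseudokinase gene TRIB3, a feedback inhibitor of ATF4, 4.32-fold (3.98 to 4.70). Of the 4 serine and folate genes named above as raised by ATF4, 0 were called higher. With 6.72% of all genes called higher, a count of 0 among 4 genes says little. Their log2 ratios were -0.46 for PHGDH, 0.27 for PSAT1, -0.02 for SHMT2 and 0.97 for MTHFD2, the last just under the 2-fold rule. MYC, another known activator of serine and folate genes, had 1839 reads in the DHA and 1886 in the untreated library and a log2 ratio of 0.04 (-0.05 to 0.14). NFE2L2, which encodes NRF2, had a log2 ratio of 0.60 (0.50 to 0.70).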

How the data were processed

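Per the file headers, the deposited table holds 1 column of counts for each library, and the values are whole-number read counts per gene with no normalization, beside a gene length in bases. Coordinates and lengths of all 58735 rows equalled those of GENCODE release 29 (GRCh38), although the submitters' processing notes list mm8. No source used here names the aligner, the counting tool or its use of strand.

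Scaling of the counts used edgeR's TMM factors (edgeR 4.0.16 in R 4.3.3). Ratios were taken after adding 0.5 reads, with exact Clopper-Pearson 95% counting intervals (scipy 1.17.1). Pair differences used the conditional exact interval of the odds ratio, and summed ratios a Poisson approximation. Intervals and the floor of 3 reads for a count of 0 cover counting error only, since PCR copies are not independent molecules. RPKM uses the deposited lengths and scaled totals. DESeq2 1.42.0 gave alternative size factors.

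The members and lists were chosen with earlier results of these data known. Text names all members, every called gene of a list (at most 4, the largest) and ATF4, except for a few that are not reported here. MTHFD2L, ALDH1L1, GLDC, SLC19A1, SLC25A32, ATIC, GART, CTH, SFXN1, PGK1, PGAM1, PKM, MYC and NFE2L2 were chosen after their values were seen. ATF3 and DDIT3, which the rule also takes, were 6.42-fold and 5.45-fold higher, with 39.6% of the exon length of DDIT3 overlapping other genes. The 14 member pseudogenes had at most 3 reads in either library.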

Additional observations from a re-analysis of the deposited data

How the results depend on the processing

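SHMT1 and MTHFD1 were called lower under every scaling, read minimum, pseudocount and interval tried, with log2 ratios of MTHFD1 from -1.01 to -1.09, and at 3-fold 0 members were lower. MTHFD2 was called higher at 1.5-fold and, in an alternative added after the data were seen, with a length and GC correction (a quadratic trend removed), which made 1 member higher in place of 0. The log2 difference of the summed mitochondrial to cytosolic ratio, 1.20, was 1.43 with medians in place of sums, 1.42 without SHMT2, 0.93 without MTHFD2, 2.0003 for MTHFD2 to MTHFD1 alone and 0.49 for MTHFD1L to MTHFD1 alone. The median log2 ratio of mitochondrial minus cytosolic genes, 1.19, was 0.59 when serine synthesis enzymes were counted as cytosolic. Of the linked genes, 12 higher and 8 lower, 5 were higher and 3 lower at 3-fold, 14 were lower at 1.5-fold and 4 were lower with at least 500 reads. Of 239 other values recomputed, 206 stayed within their limits, 33 moved and 0 called values changed sign. SHMT2, which was not called, went to 0.06 on the log2 scale with the length and GC correction, against -0.02. No paired analysis was possible because each group has 1 library, and none could be left out.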
